A study of Homo sapiens with 4 samples.

Results

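Replacement histone variants are histones that can enter chromatin at any time of the cell cycle, in contrast to the replication-dependent core histones that are made for newly copied DNA during S phase. Their genes lie outside the large histone clusters, and most give rise to polyadenylated mRNA, while replication-dependent histone mRNA ends at a conserved stem-loop. H3.3 is placed at active genes by the HIRA complex and at heterochromatic repeats by DAXX and ATRX, H2A.Z flanks transcription start sites, H2A.X is phosphorylated around DNA breaks, H2A.J is an H2A-like protein that accumulates in senescent cells with DNA damage, and the macroH2A proteins carry a large globular macro domain and mark repressed chromatin such as the inactive X chromosome. KAP1, the product of TRIM28, is a scaffold for transcriptional co-repressors and also binds at promoters of active genes.

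The 8 genes described here, H3-3A, H3-3B, H2AZ1, H2AZ2, H2AX, H2AJ, MACROH2A1 and MACROH2A2, were taken by matching the Ensembl identifiers of the count table to these symbols, and they are 8 of 19901 genes in the table. They were measured by TT-Seq, in which cells build 4-thiouridine (4sU) into the RNA they make during a short pulse and this new RNA is purified and sequenced. All libraries came from HCT116 colon cancer cells of the genotype KAP1_dTAG_CloneD5, a line grown from 1 sorted clone in which both TRIM28 alleles carry a C-terminal FKBP-V degron with HA tags. The cells were kept for 8 h in the vehicle DMSO or in dTAG, the ligand that directs the tagged KAP1 to degradation, and received 500 μM 4sU for the last 10 min, with 2 biological replicates per condition. Parental cells without the degron were not analysed here, so that an effect of the ligand itself cannot be told apart from KAP1 loss.

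Counts on genes were between 93105627 and 102314741 per library. Of the 19901 genes, 12612 had at least 50 counts in all 4 libraries and were tested, and all 8 variant genes were among them. TRIM28 had 61.7 and 69.8 CPM (counts scaled to a common library total) in the DMSO libraries and 53.5 and 47.9 CPM in the dTAG libraries. Its log2 fold change was −0.37 (adjusted p = 0.0189, edgeR's quasi-likelihood test). With each library's trends on GC content and gene length removed, it was −0.10 (adjusted p = 0.17, edgeR). The protein of TRIM28 and not its transcript is the target of dTAG, so that its RNA does not check the depletion. Epithelial markers of HCT116 were present, with a summed level of 1118 and 1147 CPM with DMSO and 1141 and 1044 CPM with dTAG. The leukocyte markers PTPRC and CD3E summed to at most 0.030 CPM. Of the fibroblast markers, COL1A2 had 0 counts and DCN at most 4, while COL1A1 had between 4.65 and 5.43 CPM and was among the tested genes. The summed fibroblast and endothelial markers stayed between 4.70 and 5.44 CPM and between 1.65 and 2.57 CPM. In such bulk libraries, fewer cells of a given type or cell cycle phase and less new RNA per cell cannot be told apart.

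The genes differ in how they are built, which helps to read their values. H2AX (ENSG00000188486.3, chr11:119093854-119095467, minus strand, hg38) and H2AJ (ENSG00000246705.4, chr12:14774383-14778002, plus strand) have canonical transcripts of 1 exon without introns. H3-3A (ENSG00000163041.9, chr1:226061851-226072001, plus strand) and H3-3B (ENSG00000132475.10, chr17:75776434-75785893, minus strand) have 4 exons each, and H2AZ1 (ENSG00000164032.11, chr4:99948086-99950388, minus strand) and H2AZ2 (ENSG00000105968.18, chr7:44826791-44848083, minus strand) have 5. MACROH2A1 (ENSG00000113648.16, chr5:135333900-135399914, minus strand) and MACROH2A2 (ENSG00000099284.13, chr10:70052796-70112280, plus strand) are the longest, with 9 exons each. The GC content of the whole gene lay between 41.4% in H2AZ2 and 49.6% in H2AZ1, except in H2AX, where it was 66.4%, above that of 99.2% of the tested genes.

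The H3.3 genes encode the same protein. Their predicted products have 136 residues and 0 differences, while 78.6% of the coding bases are identical. H2A.Z.1 and H2A.Z.2 differ at 3 of 128 residues. The macroH2A paralogs, with 372 residues each, are identical at 258 of 377 alignment positions, gaps included (68.4%). H2A.X, with 143 residues, and H2A.J, with 129, are identical at 118 of 143 alignment positions, gaps included (82.5%). Among the 8 genes, H2AX is the only one whose canonical transcript holds the histone stem-loop motif after its coding part. The motif lies at chr11:119094898-119094913, 50 bases after the coding part and 1024 bases before the end of the annotated transcript, so that this gene has both a stem-loop and a long tail. It is shown because it separates H2AX from the other variant genes and is shared with the replication-dependent genes; the capitals mark the loop between the inverted repeats.
H2AX stem-loop: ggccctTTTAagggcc

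The motif was found in 59 of 59 replication-dependent core histone genes and in 0.667% of all 19802 genes with a canonical transcript. The promoters of the 3 variant genes that were lower with dTAG by the test below are shown next, together with that of H2AZ1, whose promoter has similar motifs and which did not pass the test. Each sequence is from RefSeq (GRCh38.p14) and runs from 250 bases before to 50 bases after the annotated start of transcription. They are H2AJ (chr12:14774155-14774454, plus strand), H2AX (chr11:119095416-119095715, minus strand), H3-3B (chr17:75779730-75780029, minus strand) and H2AZ1 (chr4:99950226-99950525, minus strand), written on the strand of the gene. Capitals mark matches to CCAAT on either strand, to the TATA box letters TATAAA, and to the GC box letters GGGCGG, each searched on both strands.
H2AJ promoter: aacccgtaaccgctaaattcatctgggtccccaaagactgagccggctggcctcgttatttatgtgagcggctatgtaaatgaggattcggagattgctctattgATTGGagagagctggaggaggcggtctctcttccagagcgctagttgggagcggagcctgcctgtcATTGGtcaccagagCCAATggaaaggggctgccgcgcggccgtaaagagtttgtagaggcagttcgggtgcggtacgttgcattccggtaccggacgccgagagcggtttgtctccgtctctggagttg
H2AX promoter: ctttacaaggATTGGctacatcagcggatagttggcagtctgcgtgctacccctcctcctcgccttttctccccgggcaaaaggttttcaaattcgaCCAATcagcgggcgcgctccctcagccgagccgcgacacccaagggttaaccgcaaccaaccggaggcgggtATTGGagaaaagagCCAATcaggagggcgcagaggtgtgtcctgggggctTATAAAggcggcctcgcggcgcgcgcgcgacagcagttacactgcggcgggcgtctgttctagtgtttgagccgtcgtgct
H3-3B promoter: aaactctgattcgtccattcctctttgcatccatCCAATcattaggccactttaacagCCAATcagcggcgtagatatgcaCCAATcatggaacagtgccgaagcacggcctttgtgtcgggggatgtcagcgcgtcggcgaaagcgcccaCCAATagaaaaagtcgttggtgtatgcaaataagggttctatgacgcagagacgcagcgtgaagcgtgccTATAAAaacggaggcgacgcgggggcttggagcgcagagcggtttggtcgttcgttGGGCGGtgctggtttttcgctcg
H2AZ1 promoter: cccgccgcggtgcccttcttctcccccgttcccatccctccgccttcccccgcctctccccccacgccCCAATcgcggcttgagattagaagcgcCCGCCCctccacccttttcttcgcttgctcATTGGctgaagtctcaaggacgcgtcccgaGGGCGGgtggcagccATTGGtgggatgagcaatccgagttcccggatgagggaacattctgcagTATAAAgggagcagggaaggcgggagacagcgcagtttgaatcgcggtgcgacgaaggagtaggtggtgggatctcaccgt

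CCAAT, the core of the site that NF-Y binds, was found in 3 copies in the promoters of H2AJ and H2AZ1 and in 4 copies in those of H2AX, H3-3B and H2AZ2. Of 35116 RefSeq promoters of the same length, 34.6% hold at least 1 copy, 3.26% at least 3 and 0.991% at least 4. TATAAA, the core of a TATA box, began at position −31 from the start in H2AX and H2AZ1 and at −29 in H3-3B, and 11.5% of all promoters hold it. GGGCGG, the core of the site that SP1 binds, was found in 1, 2, 4 and 6 copies in the separate promoters of H3-3A. Of all promoters, 45.0% hold at least 1 copy, 15.8% at least 3 and 9.06% at least 4. The promoter of MACROH2A2 held none of the 3 motifs. The palindrome TGACGTCA, held by 1.85% of all promoters, was not among the letters of any promoter of the 8 genes on either strand. The same was true of TTTCCCGC, held by 1.63%, and of TTTGGCGC, held by 0.652%. The 3 genes that passed the test and the H2A.Z genes, which did not, thus shared 3 or more CCAAT copies, so that this feature did not separate them.

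Before dTAG, the variant genes spanned a wide range of new RNA, which was compared per kilobase of gene because long genes collect more counts. H2AX had the highest level in the DMSO libraries, with 60.9 ± 8.36 CPM per kilobase (SD, n = 2), above 99.3% of the tested genes. H2AZ1 followed with 19.6 ± 0.728, H3-3B with 18.1 ± 0.123 and H3-3A with 6.89 ± 0.459 CPM per kilobase. H2AZ2, with 5.25 ± 0.323 CPM per kilobase, and MACROH2A1, with 4.97 ± 0.182, overlapped between the libraries and could not be ordered. H2AJ had 2.67 ± 0.240 CPM per kilobase, and MACROH2A2 was the lowest with 1.02 ± 0.0135, close to the median of 1.06 over the tested genes.

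Per kilobase of exons the order changed, although the counts include introns. H2AX stayed highest with 61.7 CPM per kilobase of exons, but H3-3B, with 27.9, then stood above H2AZ1, with 19.9. MACROH2A1 had 19.3 and H3-3A 18.3 CPM per kilobase of exons, and H2AZ2 came next below them. MACROH2A2 had 4.03 and H2AJ was the lowest with 2.90 CPM per kilobase of exons. The exon length joins the exons of all annotated transcripts. For H2AJ it was 3332 bases, against 620 in the canonical transcript, and for H2AX 1592 in both. The order thus depends on the annotation.

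These levels depend on the interval over which reads were counted. The interval of H3-3B starts 6114 bases upstream of its RefSeq start of transcription, and the counts within that stretch are not given separately. The interval overlaps UNK on the opposite strand by 1123 bases. In the same way MACROH2A2 overlaps AIFM2 on the opposite strand by 14058 bases, and the other 6 genes overlap no gene of the table. Whether the counting used strand or reads that map to several places is not given in the sources used here, and of all stretches of 50 bases, 12.4% in H3-3A, 8.61% in H3-3B, 7.23% in H2AZ2, 4.03% in MACROH2A2 and 3.28% in H2AZ1 occur elsewhere in the genome, against 0.870% in MACROH2A1, 0.319% in H2AX and 0% in H2AJ. Values are less certain where that share is higher.

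**Figure D1:**
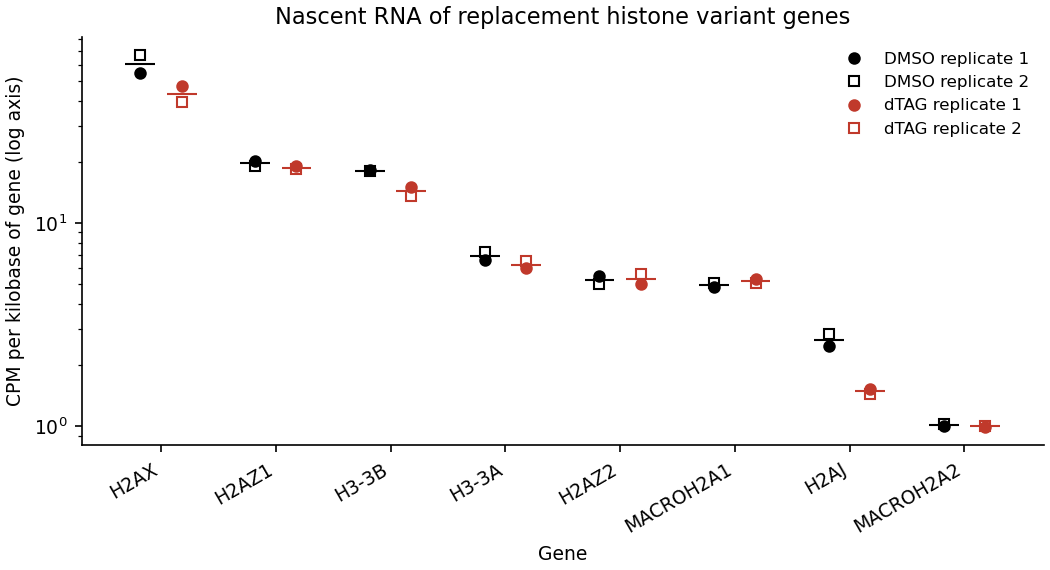
New RNA of the 8 replacement histone variant genes in CPM per kilobase of gene, on a log axis, in each library; filled circles are replicate 1, open squares replicate 2, black DMSO, red dTAG, and lines the mean of 2 libraries. H2AX stands highest and MACROH2A2 lowest, and the dTAG libraries lie clearly below the DMSO libraries for H2AJ, H2AX and H3-3B.

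The comparison of dTAG with DMSO asks how new RNA of these genes differed after 8 h of KAP1 depletion. Of the 8 genes, 3 were lower with dTAG at an adjusted p under 0.05 (H2AJ, H2AX and H3-3B), 0 were higher and 5 did not pass the test, where 3.66% of all tested genes were lower, 3.44% were higher and 7.1% passed in either direction (quasi-likelihood test of edgeR, p-values adjusted by Benjamini and Hochberg's method over the 12612 genes). The median log2 fold change of the 8 genes was −0.10, beside −0.01 over all tested genes. In 5 of the 8 genes both dTAG libraries lay below both DMSO libraries, as in 30.7% of the tested genes, and in 0 both lay above, as in 28.1%. At an unadjusted p under 0.05, the same 3 of the 8 genes passed, as did 26.6% of all tested genes.

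H2AJ showed the largest change of the 8 genes. Its level was 9.05 and 10.3 CPM in the DMSO libraries and 5.55 and 5.25 CPM in the dTAG libraries, from between 474 and 1025 counts. Both dTAG libraries lay far below both DMSO libraries, and the replicates were close to each other. The log2 fold change was −0.84 (SE 0.15, 95% interval −1.15 to −0.52), so that the level fell by 44.1%, and it passed the test (adjusted p = 0.00185, edgeR's quasi-likelihood). It was the only variant gene past 1.5-fold. Its GC content of 45.6% was near the median of 44.9% of the tested genes, while its 3620 bases exceeded the length of 4.17% of them. After the trends of each library on GC content and gene length were removed, the log2 fold change was −0.78 (adjusted p = 5.3e-04, edgeR). The call was lost without dTAG replicate 2, where the log2 fold change was −0.80 (adjusted p = 0.12, edgeR), and with the ERCC totals as library sizes, where it was −0.17 (adjusted p = 0.74, edgeR).

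H2AX, the variant phosphorylated at DNA breaks, had 88.8 and 108 CPM in the DMSO libraries and 75.8 and 63.5 CPM in the dTAG libraries. The groups did not overlap, but the replicates differed more than those of H2AJ. The log2 fold change was −0.50 (SE 0.10, 95% interval −0.71 to −0.29), so that the level fell by 29.1%, and it passed the test (adjusted p = 0.00499, edgeR's quasi-likelihood). Over all tested genes, fold changes fell with GC content (Spearman's correlation −0.56 across genes, which are not independent replicates) and rose with gene length (0.42). H2AX, with 1614 bases, was longer than 0.825% of the tested genes. Trends on both were removed together, and their separate parts were not tested. With the trends on GC content and gene length removed, the log2 fold change of H2AX was −0.11, and it did not pass the test (adjusted p = 0.15, edgeR). With a factor from the ERCC spike-in RNAs as a covariate it was −0.20 (adjusted p = 0.048, edgeR), and with the ERCC totals as library sizes its direction turned, to 0.17 (adjusted p = 0.79, edgeR). Without dTAG replicate 2 it was −0.37 and did not pass (adjusted p = 0.62, edgeR).

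**Figure D2:**
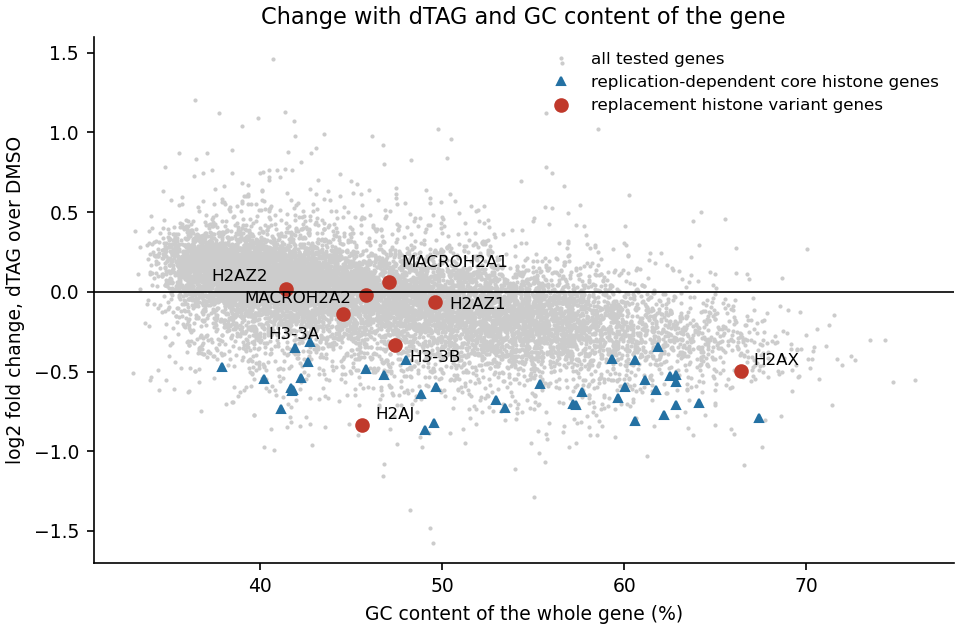
Log2 fold change of dTAG over DMSO (y axis) against the GC content of the whole gene in percent (x axis), for all 12612 tested genes in grey, 38 replication-dependent core histone genes as blue triangles and the 8 replacement variant genes as red circles. H2AX lies at a GC content of 66.4%, where most genes are below 0, while H2AJ lies at 45.6%, apart from most genes of similar GC content.

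The H3.3 genes make the same protein from separate loci. H3-3B had 172 and 170 CPM in the DMSO libraries and 142 and 129 CPM in the dTAG libraries. Its DMSO libraries were nearly equal, and both dTAG libraries lay below them. The log2 fold change was −0.34 (SE 0.086, 95% interval −0.52 to −0.16), so that the level fell by 20.8%, and it passed the test (adjusted p = 0.0229, edgeR's quasi-likelihood). Without dTAG replicate 1 it was −0.40 (adjusted p = 0.33, edgeR), and without dTAG replicate 2 −0.27 (adjusted p = 0.93, edgeR). With the ERCC totals as library sizes the direction turned, to 0.30 (adjusted p = 0.67, edgeR). UNK, which overlaps H3-3B on the opposite strand, had a log2 fold change of 0.0043.

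H3-3A had 66.7 and 73.3 CPM in the DMSO libraries and 61.1 and 65.8 CPM in the dTAG libraries. Both dTAG libraries lay below both DMSO libraries by a margin smaller than the difference between replicates. The log2 fold change of −0.14 (95% interval −0.32 to 0.041) did not pass the test (adjusted p = 0.31, edgeR's quasi-likelihood test). Without DMSO replicate 1 it was −0.21, in a fit that leaves 1 DMSO library. The counts of H3-3A were 0.387 and 0.430 times those of H3-3B in the DMSO libraries and 0.430 and 0.509 times in the dTAG libraries. This ratio does not depend on library scaling. It was higher by 0.20 on the log2 scale with dTAG, against a pooled SD of 0.14, and the exact permutation test gave p = 0.333 (two-sided), the smallest that 2 against 2 libraries allow. This test could not have passed, and whether the fold changes of the paralogs differ was not settled.

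H2AZ1 and H2AZ2 encode the H2A.Z proteins. H2AZ1 had 46.4 and 44.1 CPM with DMSO and 43.8 and 42.6 CPM with dTAG, with a log2 fold change of −0.07 (95% interval −0.25 to 0.12, adjusted p = 0.66, edgeR's quasi-likelihood test). H2AZ2 had 117 and 107 CPM with DMSO and 107 and 120 CPM with dTAG, with a log2 fold change of 0.02 (95% interval −0.17 to 0.20, adjusted p = 0.92). The H2AZ2 groups overlapped, and those of H2AZ1 were separated by less than the spread of its DMSO libraries. The counts of H2AZ1 were 0.398 and 0.412 times those of H2AZ2 with DMSO and 0.410 and 0.356 times with dTAG, a difference of −0.08 on the log2 scale (pooled SD 0.10, exact permutation p = 0.667). Which of them had the higher fold change was not settled, since the difference was 0.107 with the GC and length trends removed and 0.0195 without dTAG replicate 2.

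The macroH2A genes encode H2A variants with a macro domain. MACROH2A1 had 319 and 336 CPM with DMSO and 349 and 336 CPM with dTAG, and its log2 fold change was 0.06 (95% interval −0.13 to 0.26, adjusted p = 0.68, edgeR's quasi-likelihood test). MACROH2A2 had 59.9 and 61.0 CPM with DMSO and 59.4 and 60.0 CPM with dTAG, and its log2 fold change was −0.02 (95% interval −0.19 to 0.16, adjusted p = 0.90). The groups overlapped in both genes. The counts of MACROH2A1 were 5.33 and 5.51 times those of MACROH2A2 with DMSO and 5.88 and 5.60 times with dTAG, a difference of 0.08 on the log2 scale (pooled SD 0.043, exact permutation p = 0.333, the smallest possible).

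**Figure D3:**
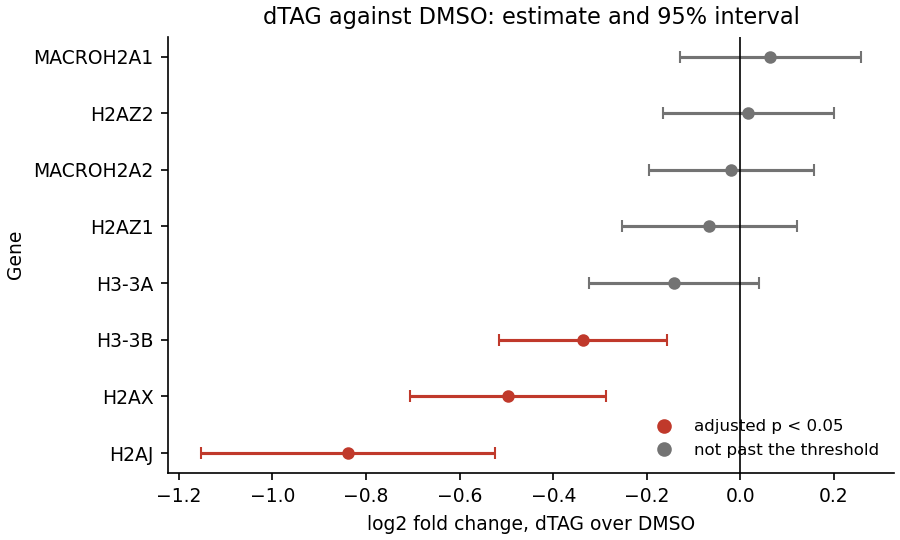
Log2 fold change of dTAG over DMSO for the 8 genes, with 95% intervals from edgeR's quasi-likelihood fit; red marks an adjusted p under 0.05. H2AJ, H2AX and H3-3B lie below 0 with their whole interval, and the intervals of the other 5 genes include 0.

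**Figure D4:**
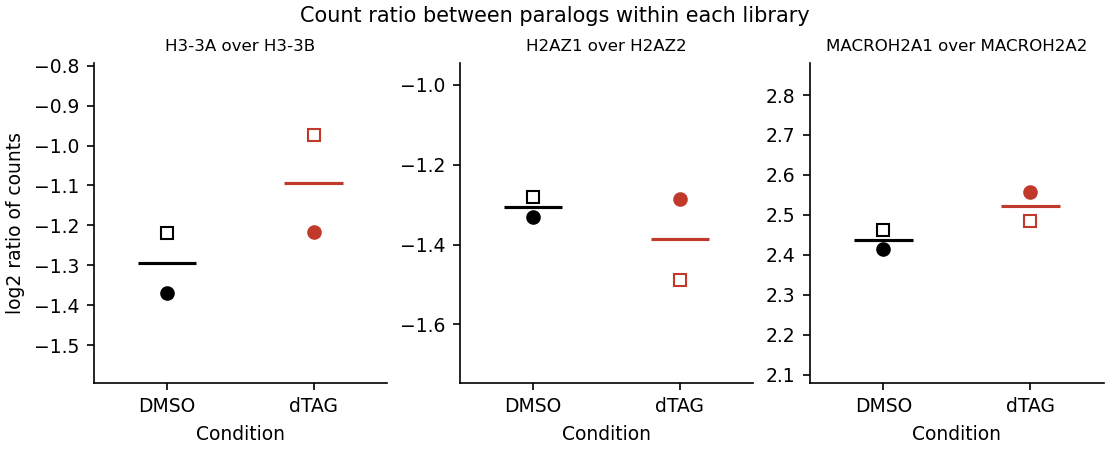
Log2 ratio of counts between the paralogs of each pair within a library, for DMSO (black) and dTAG (red); filled circles are replicate 1, open squares replicate 2, and lines the mean of 2 libraries. All panels span the same range, and the conditions overlap for H2AZ1 over H2AZ2 and are separate for the other pairs.

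Of 31 genes that deposit, remove, modify or read these variants, in 4 lists, 29 were tested, of which 0 were lower and 1 was higher, beside 3.66% and 3.44% of all tested genes. Of the 7 genes for H3.3 deposition, 0 passed the test, with a median log2 fold change of −0.01, and the smallest p-values were those of HIRA, the scaffold of the HIRA chaperone complex (log2 fold change 0.24, adjusted p = 0.16, edgeR's quasi-likelihood test), and DAXX, the H3.3 chaperone that works with ATRX (−0.14, adjusted p = 0.41). Of the 11 genes for H2A.Z deposition and removal, 0 passed, with a median of 0.09, where INO80, the catalytic subunit of the INO80 remodeling complex, had a log2 fold change of 0.28 (adjusted p = 0.067) and VPS72, an H2A.Z-binding subunit of the SRCAP complex, one of 0.22 (adjusted p = 0.14). Of these 11 genes, 3 passed with the GC and length trends removed, as did 18.1% of all tested genes, and 2 passed with the ERCC factor, as did 10.5%. Without DMSO replicate 1, 3 of the H3.3 list and 5 of the H2A.Z list passed, where 43.5% of all tested genes did.

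Among genes that modify or read H2A.X, 9 of 11 were tested and 1 passed, with a median of 0.12. ATR, the kinase that phosphorylates H2A.X during replication stress, had 112 and 91.8 CPM with DMSO and 127 and 133 CPM with dTAG. Both dTAG libraries lay above both DMSO libraries, and the log2 fold change was 0.35 (SE 0.094, adjusted p = 0.0297, edgeR's quasi-likelihood test). It was 0.18 with the GC and length trends removed (adjusted p = 0.0091, edgeR), 0.96 with ERCC totals (adjusted p = 0.47, edgeR), 0.28 with upper-quartile normalization (adjusted p = 0.056, edgeR), 0.12 with the ERCC factor (adjusted p = 0.29, edgeR), 0.38 without dTAG replicate 1 (adjusted p = 0.31, edgeR) and 0.31 without dTAG replicate 2 (adjusted p = 0.83, edgeR). The FACT subunits SSRP1 and SUPT16H, which help histones come off and on during transcription, had log2 fold changes of 0.02 and 0.10 and did not pass. Of 9 other replacement or lineage variants, 2 were tested and 0 passed. CENPA, the centromeric H3 variant, had a log2 fold change of −0.08 (adjusted p = 0.61), and H3-5, a gene closely related to H3-3B, had one of −0.51 (adjusted p = 0.26) from only 66 to 132 counts.

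The replication-dependent core histone genes were lower with dTAG. Of the 59 genes counted, 38 were tested, and 36 were lower and 0 higher, beside 3.66% and 3.44% of all tested genes. The median log2 fold change was −0.60, with a range from −0.86 for H3C10 to −0.31 for H2BC7. Their summed level was 2735 and 3333 CPM with DMSO and 2187 and 1945 CPM with dTAG. H2AJ, at −0.84, lay near the lower end of that range, H2AX, at −0.50, and H3-3B, at −0.34, lay within it, and the other 5 variant genes, from −0.14 to 0.06, lay above its upper end. No test of the difference between the families was made. The count of 36 was 31 with the GC and length trends removed, beside 18.1% of all tested genes, and 27 with the ERCC factor, beside 10.5%. The median of the family was then −0.38 and −0.32. It was −0.71 without dTAG replicate 1 and −0.50 without dTAG replicate 2, where fewer of the family and of all genes passed. With the ERCC totals as library sizes it was 0.06, and 0 of the family, 0 of the variant genes and 0 of all tested genes passed.

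The position of the variant genes was examined through their nearest protein-coding neighbours. Of these, 17 of 18 were tested, 2 were lower and 0 higher, beside 3.66% and 3.44% of all tested genes. H2AJ lies head to head with H4C16, whose start is 3251 bases away. H4C16 is a replication-dependent H4 gene and was already counted in that family above. H4C16 had 25.5 and 36.3 CPM with DMSO and 19.2 and 15.7 CPM with dTAG, both dTAG libraries below both DMSO libraries, with a log2 fold change of −0.82 (SE 0.14, adjusted p = 0.00102, edgeR's quasi-likelihood test), close to that of H2AJ. With the ERCC factor as a covariate it was −0.34 (adjusted p = 0.029, edgeR) for H4C16 and −0.67 (adjusted p = 0.00504, edgeR) for H2AJ. On the other side of H2AJ, WBP11, a splicing factor gene, had a log2 fold change of 0.19 (adjusted p = 0.17).

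DPAGT1, an N-glycosylation gene 1035 bases from H2AX on the same strand, had a log2 fold change of −0.17 and did not pass the test (adjusted p = 0.39, edgeR's quasi-likelihood test). GALK1, the galactokinase gene 10722 bases from H3-3B, was lower, with a log2 fold change of −0.54 (adjusted p = 0.0356) from 10.0 and 13.5 CPM with DMSO and 8.28 and 7.86 CPM with dTAG. It did not pass with the GC and length trends removed (−0.26, adjusted p = 0.092, edgeR), with the ERCC factor (−0.18, adjusted p = 0.58, edgeR) or without DMSO replicate 2 (−0.31, adjusted p = 0.15, edgeR), without dTAG replicate 1 (−0.58, adjusted p = 0.23, edgeR) or without dTAG replicate 2 (−0.51, adjusted p = 0.69, edgeR). DNAJB14, a cochaperone gene 1359 bases from H2AZ1, had a log2 fold change of 0.27 and did not pass (adjusted p = 0.071).

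The following neighbours did not pass the test. SDE2 and ACBD3 beside H3-3A had log2 fold changes of 0.12 and 0.09, UNC13D beside H3-3B −0.12, DDIT4L beside H2AZ1 −0.30, and PPIA and PURB beside H2AZ2 0.06 each. PITX1 beside MACROH2A1 had a log2 fold change of −0.08, and DCANP1 on its other side had 0 counts. Around MACROH2A2, AIFM2, COL13A1 and TYSND1 had log2 fold changes of −0.11, 0.16 and −0.21.

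The genes most like H2AJ and H2AX in their pattern over the 4 libraries were taken as those with the smallest distance between centred log2 CPM values, among genes whose DMSO level was within 2 times that of the variant gene. For H2AJ, out of 2584 such genes, they were the H4 gene H4C11 at a distance of 0.126, RHOU, which encodes a small GTPase, at 0.155, and CHD9NB at 0.160. For H2AX, out of 4040, they were the H2B genes H2BC12 at 0.0675 and H2BC15 at 0.0863, with CXXC5, a zinc finger protein gene, between them at 0.0726. The GC content was 61.2% for H2BC12, 58.2% for CXXC5 and 40.2% for H2BC15, against 66.4% for H2AX. These distances are descriptions over the same 4 libraries as the fold changes and add no independent evidence to them.

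**Figure D5:**
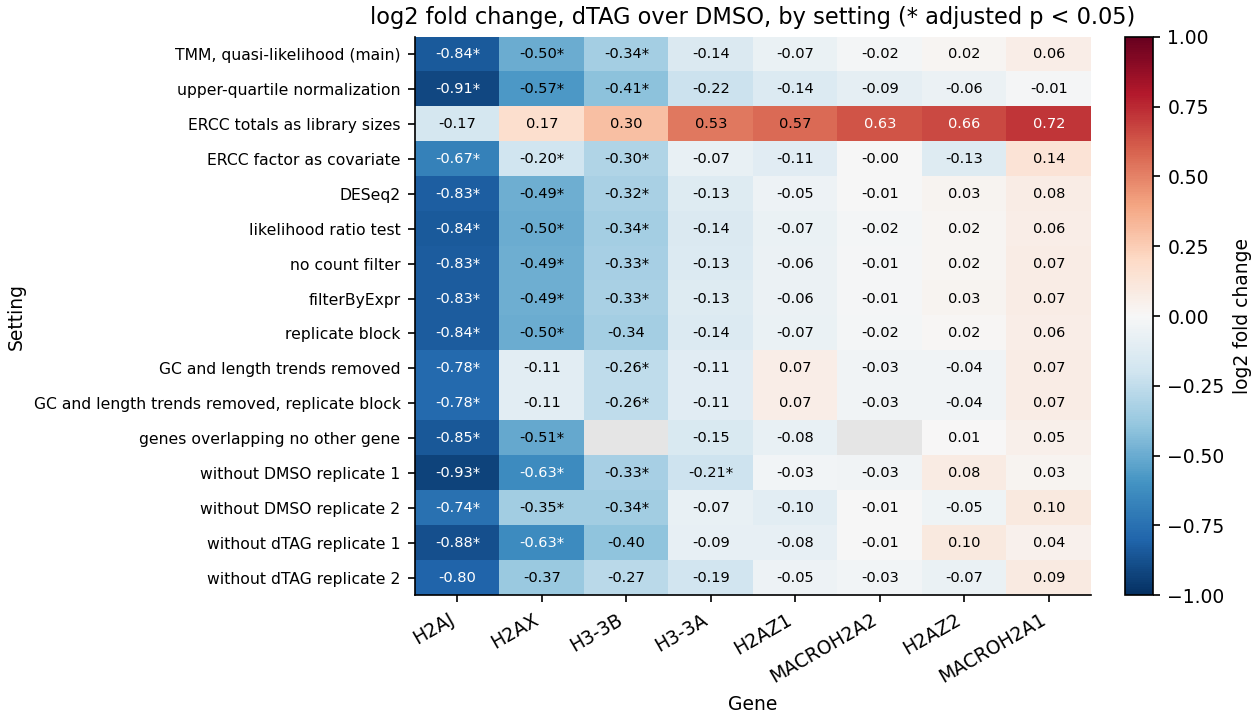
Log2 fold change of dTAG over DMSO for each of the 8 genes (columns) under each setting of the analysis (rows), with blue below and red above 0; an asterisk marks an adjusted p under 0.05 and grey a gene not included. H2AJ was below 0 in every setting shown, whereas H2AX was near 0 with the GC and length trends removed, and with ERCC totals as library sizes all genes but H2AJ were above 0 and none passed the test.

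With the ERCC totals as library sizes, the log2 fold change of every variant gene moved up together with that of all genes, whose median was then 0.63. The ERCC RNAs made up between 0.0103% and 0.0265% of counts, 0.0150% and 0.0265% with DMSO against 0.0136% and 0.0103% with dTAG. Both dTAG shares lay below both DMSO shares, and the DMSO replicates differed from each other by more than the dTAG replicates did. Relative to the median of all genes, H2AJ stayed between −0.84 and −0.67 over the settings that kept all 4 libraries, H3-3B between −0.34 and −0.25 and H2AX between −0.50 and −0.11. The ranges of H2AX and H3-3B overlap, so that their order was not fixed. By the study's methods, the ERCC mix was added to the purified new RNA at library preparation, and not to cells. The ERCC totals therefore cannot report the amount of new RNA per cell. The lower levels of these 3 genes are statements relative to the other genes, and whether the total amount of new RNA differed was not tested.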

How the data were processed

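New RNA of 4 TT-Seq libraries was analysed, 2 with DMSO and 2 with dTAG, grouped by their labels. The authors deposited raw counts, whole numbers without normalization, for 19901 protein-coding genes over their entire length, introns included, and for 92 ERCC spike-in RNAs. Per the submitters' processing notes, reads were checked with FastQC 0.11.8, trimmed with Trim Galore 0.6.4, aligned to hg38 and counted with featureCounts of Subread 1.6.3. The use of strand, overlapping genes and multiply mapped reads is not given in the sources used here. Deposited starts were 1 base before the GENCODE 44 start in 11092 genes and equal to it in 371. The starts of all genes were shifted by 1 base.

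The count minimum for testing a gene was 50 in each of the 4 libraries. Counts were tested with edgeR 4.0.16 in R 4.3.3 (TMM scaling, quasi-likelihood F test, two-sided, Benjamini-Hochberg adjustment over the 12612 tested genes, threshold 0.05). The standard error is the size of the log2 fold change over the square root of F. CPM values use TMM library sizes. The study names spike-in normalization without its function or number of factors, so that spike-in settings were alternatives. Other alternatives were upper-quartile scaling, DESeq2 1.42.0, the likelihood ratio test, other count filters, a replicate block, lowess removal of GC and length trends with a span of 0.3, genes overlapping no other gene, and leaving out each library; a crossed block was chosen after seeing the data. Replicates differed beyond counting error (chi-square per gene 51.3 with DMSO and 15.1 with dTAG) and count as separate samples, so that 2 replicates, more than depth, limit the precision.

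The variant genes and all lists were chosen with earlier results of these data known. Named were the 8 genes, TRIM28, every gene of the partner lists that passed the test or the 2 with the smallest p of a list with none, the chromosomal neighbours (1 of which is not reported here), the lowest and highest replication-dependent histone gene, and the 3 genes nearest in pattern to the 2 variant genes with the smallest p. Promoters came from RefSeq, with 8 of 8 genes matched, and transcripts from GENCODE 44.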

Additional observations from a re-analysis of the deposited data

How the results depend on the processing

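Over all tested genes, the number passing the test was 895 (434 higher, 461 lower) and became 1124 with upper-quartile scaling (255 higher, 869 lower), 1322 with the ERCC factor (798 higher, 524 lower), 1273 with DESeq2, 1593 with the likelihood ratio test, 1417 without a count filter, 2284 with GC and length trends removed (1343 higher, 941 lower), and 0 with ERCC totals as library sizes, where 229 had an unadjusted p under 0.05. Leaving out 1 library gave between 69 and 5491. The lone library of a group is then assumed to vary like the other group. Of the variant genes, 3 passed with TMM, 0 with ERCC totals (0 at an unadjusted p under 0.05, edgeR), 2 with GC and length trends removed (H3-3B and H2AJ), 2 of the 6 that overlap no other gene (H2AX and H2AJ) and between 0 and 4 with 1 library left out, 0 being without dTAG replicate 2 and 4 without DMSO replicate 1. Their median log2 fold change was −0.18 with upper-quartile scaling and 0.55 with ERCC totals, which moved the median of all genes to −0.09 and 0.63, and lay between −0.13 and −0.083 with 1 library left out.

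The replicate numbers do not pair the samples by the labels, and the deviations of same-numbered libraries correlated at −0.24 across genes. With the replicate block 340 genes and 2 variant genes (H2AX and H2AJ) passed, with the log2 fold change of H3-3B at −0.34 and its adjusted p at 0.13 (edgeR), and ATR, GALK1 and TRIM28 did not pass. With the block and both trends removed, 2621 genes and 2 variant genes passed, and with the numbers crossed 3190 and 3.

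Signs turned with ERCC totals for H3-3A (0.53), H3-3B (0.30), H2AZ1 (0.57), H2AX (0.17), MACROH2A2 (0.63), GALK1 (0.15) and TRIM28 (0.28). H2AZ2 turned to −0.056 with upper-quartile scaling, −0.13 with the ERCC factor, −0.037 with the trends removed, −0.039 with the block added, −0.046 without DMSO replicate 2 and −0.068 without dTAG replicate 2, and with 1 library left out it lay between −0.068 and 0.0999. MACROH2A1 turned to −0.0099 with upper-quartile scaling and H2AZ1 to 0.067 with the trends removed and 0.068 with the block added. These genes, apart from H3-3B, H2AX, GALK1 and TRIM28, did not pass in the first place. The difference in the H2AZ1 over H2AZ2 ratio was 0.107 with trends removed and between −0.18 and 0.0195 with 1 library left out, that of H3-3A over H3-3B between 0.076 and 0.32, and that of MACROH2A1 over MACROH2A2 between 0.048 and 0.12. The cause of these shifts was not tested.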
